A study of Sus scrofa with 3 samples.

Results

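The fatty acid beta-oxidation genes followed here were CPT1A, CPT1B, CPT2, ACADM, ACADL, ACADVL, HADHA, HADHB, and ACAA2. They were taken by name and not by their values, and all 9 were found among the 22826 genes of type mRNA with a value in the IM, CM, and CMT libraries. Of these, 7 were listed under their own symbol. ACADVL was listed as LOC100520636, matched by its RefSeq gene ID, and HADHB as LCTHIO, matched by a RefSeq synonym. All 9 code for enzymes of the mitochondrial pathway, so the peroxisomal pathway was followed through a list of its own. In these pools, 8 of the 9 genes had a value above 0 in every library, and CPT1B was listed at 0 in every library.

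Visceral adipose tissue was retroperitoneal fat of male Wuzhishan miniature pigs, which were 6 to 7 months old when obtained and all ate an HFC diet, rich in fat and cholesterol, for 12 weeks. IM pigs kept their testes and had skin incisions only, CM pigs were castrated, and CMT pigs were castrated and injected every week with testosterone propionate in corn oil at 10 mg/kg. An oil injection was described for CMT pigs only, and no diet comparison was possible because all pigs ate the HFC diet. RNA was pooled within each group (4 pigs by the study's methods, between 4 and 6 by the sample labels) and sequenced as 1 library per group, so the comparisons have no replicate check and no p-values are given.

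Mitochondrial beta-oxidation shortens fatty acids by repeated removal of acetyl-CoA. Long-chain acyl groups enter the mitochondrion through the carnitine shuttle, acyl-CoA dehydrogenases make the first oxidation step, and the trifunctional protein and thiolases complete each round. White adipose tissue stores and releases fatty acids more than it burns them, and its capacity for oxidation is far below that of muscle or liver.

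Expression is given in UQRPKM, the reads on a gene per kilobase of its length, scaled by the upper quartile of gene reads in that library. Because the unit is per length, levels of different genes can be set side by side. A difference between libraries is a log2 ratio of their UQRPKM values, with no pseudocount added, followed by an exact Clopper-Pearson 95% interval from the reads recovered from the values. Such an interval covers counting error only, not the spread between pigs or between library preparations. A gene was called higher or lower where the fold reached 1.5 and neither library was below 1 UQRPKM. Where 3 values follow each other unnamed, levels and reads are in the order IM, CM, CMT, and log2 ratios in the order CM to IM, CMT to CM, CMT to IM.

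The libraries held between 13449107 and 14844063 recovered reads on mRNA genes. Adipocyte markers marked all 3 libraries as fat, with a summed level of 140332 (IM), 131750 (CM), and 110075 (CMT) UQRPKM over the 7 markers matched, none of which was at 0. Of these 7, 6 had a log2 ratio below 0 in CMT against CM, with a median of -0.47. In CMT against IM all 7 did, with a median of -0.39. Their part in lower CMT values of the genes below was not tested. Skeletal muscle markers summed to 118, 104, and 7406 UQRPKM, respectively. Of the 16 muscle markers matched, 13 were highest in CMT, and TNNT3, CKM, and MB were listed at 0 in every library. Hepatocyte markers summed to 2602, 11632, and 1773 UQRPKM, and 15 of the 16 matched were highest in CM, APOA1, which was highest in IM, being the exception. ALB, the defining product of hepatocytes, had a UQRPKM of 2.61 (IM), 2910 (CM), and 4.00 (CMT), and 6 hepatocyte markers were at 0 in IM and 6 in CMT. Mesothelial markers summed to 153, 267, and 689 UQRPKM, with LRRN4 at 0 throughout. Of them 5 were highest in CMT, whereas KRT18 was highest in IM and lowest in CMT, at 28.7, 26.7, and 14.4 UQRPKM. Macrophage markers summed to 4380, 3819, and 3547, with CD163 at 0 throughout. C1QA, at 2833, 2100, and 1993 UQRPKM, was the highest macrophage marker in each library. Of 8 macrophage markers tested in CM against IM, 6 had a log2 ratio above 0 and 2 below. There 3 were called higher and 0 lower, beside 8.38% and 10.4% of all mRNA genes tested. In CMT against CM, 0 were called higher and 3 lower, beside 9.53% and 9.97%. Adrenal markers summed to 366, 620, and 399 UQRPKM with CYP11A1 and CYP17A1 at 0 in every library. Most of each sum was HSD3B1, at 336, 592, and 369 UQRPKM, while STAR had 25.3, 22.7, and 27.6. Kidney markers stayed below 1 UQRPKM in sum, with UMOD, SLC12A1, AQP2, and SLC22A6 at 0 throughout. Muscle and liver are both tissues of strong beta-oxidation, and the part of these cells in the values below was not tested. In pooled tissue, fewer cells of a type and less RNA per cell cannot be told apart.

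**Figure D1:**
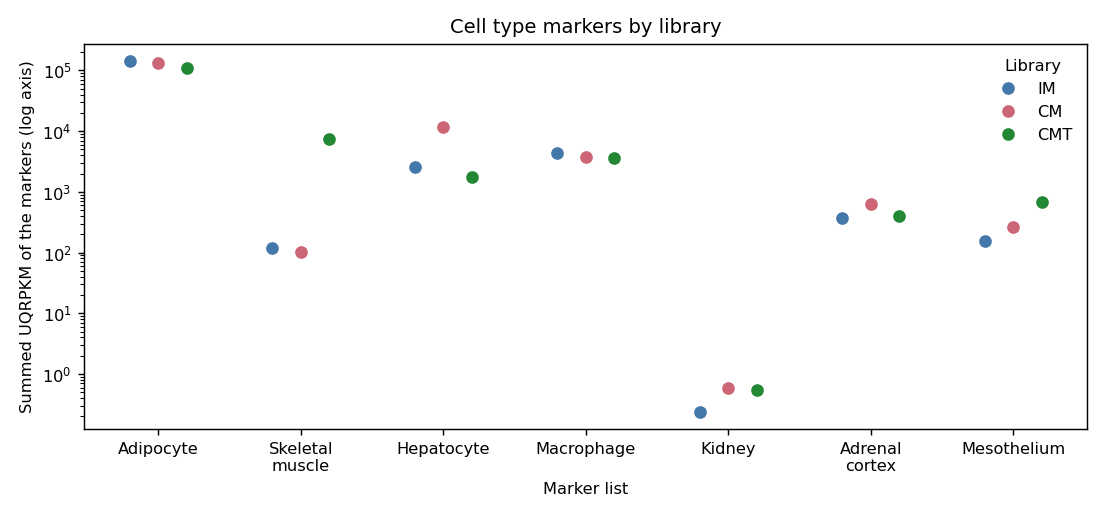
Summed UQRPKM (log axis) of the matched markers of 7 cell types in the IM, CM, and CMT libraries, 1 point per library. Muscle markers stand at 7406 UQRPKM in CMT against 118 in IM and 104 in CM, and hepatocyte markers at 11632 in CM against 2602 in IM and 1773 in CMT.

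Taken as a set, the beta-oxidation genes were expressed at almost the same summed level in the 3 libraries. The sum over the 9 genes was 10370 (IM), 10168 (CM), and 10267 (CMT) UQRPKM. None of the 8 genes with a value was called higher or lower in any comparison. Among all mRNA genes tested, 18.8% were called in either direction in CM against IM, 19.5% in CMT against CM, and 20.7% in CMT against IM. The median log2 ratio of the 8 genes was 0.02 in CM against IM, 0.01 in CMT against CM, and -0.02 in CMT against IM, beside medians of -0.06, -0.02, and -0.08 over all mRNA genes tested. These comparisons share libraries, so they are not independent of each other.

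Differences below the 1.5-fold limit still exceeded counting error for several of the genes. On the UQRPKM scale the counting interval left out 0 for 4 of 8 genes in CM against IM, where 42.3% of all mRNA genes tested had such an interval. It did so for 5 of 8 genes in CMT against CM, where 38.4% of all genes tested did, and for 4 of 8 in CMT against IM, where 44.5% did. The interval narrows as reads increase, and these 8 genes had between 634 and 10246 recovered reads in a library. Those of HADHB and ACADM may have been recovered too low, which widens their intervals, so the counts over the 8 genes may be too low.

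**Figure D2:**
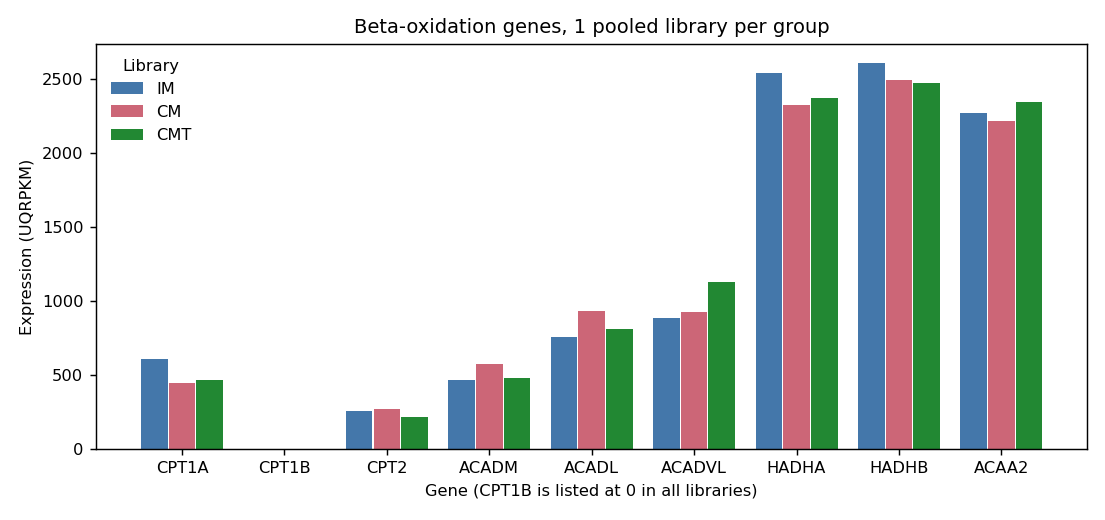
Expression (UQRPKM, linear axis from 0) of the 9 beta-oxidation genes, with 1 bar for each pooled library and no error bars because each group has 1 library. HADHA, HADHB, and ACAA2 lie between 2216 and 2603 UQRPKM, the other genes with a value between 215 and 1124, and CPT1B is listed at 0.

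The carnitine shuttle begins with carnitine palmitoyltransferase 1 in the outer mitochondrial membrane, the step at which entry of long-chain fatty acids is controlled. CPT1A, the isoenzyme typical of liver and many other tissues, had a UQRPKM of 603 (IM), 443 (CM), and 466 (CMT). It was thus highest in the intact pigs and lower in both castrated groups, which lay close together. The log2 ratio was -0.44 (-0.53 to -0.36) in CM against IM, the lowest of the 8 genes. In CMT against IM it was -0.37 (-0.45 to -0.29). On the UQRPKM scale CMT and CM could not be told apart by counting error, with a log2 ratio of 0.07 (-0.01 to 0.16).

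CPT1B, the isoenzyme of skeletal and heart muscle, was listed at 0 in all 3 libraries, CMT included. Such a 0 need not mean that the gene gave no reads, because CKM and MB were also listed at 0 in the library in which ACTA1, the actin of skeletal muscle, stood at 3589 UQRPKM. Among 66 ribosomal protein genes, recognised by symbol, 6 were listed at 0 throughout as well. No ratio was therefore drawn from CPT1B. CPT1C, a brain-type relative with little catalytic activity, was low at 22.4, 12, and 13.7 UQRPKM from 45, 23, and 27 reads. It was called lower in CM against IM at -0.90 (-1.69 to -0.14) and in CMT against IM at -0.71 (-1.45 to 0.01), the latter with an interval that includes 0.

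CPT2, which turns acylcarnitine back into acyl-CoA inside the mitochondrion, was the lowest of the 8 genes in each library, at 253 (IM), 269 (CM), and 215 (CMT) UQRPKM. The value in CMT was below those in IM and CM, whose order on the UQRPKM scale was within counting error. CPT2 had a log2 ratio of -0.32 (-0.45 to -0.20) in CMT against CM and -0.24 (-0.37 to -0.11) in CMT against IM. The carrier SLC25A20, which exchanges acylcarnitine for carnitine across the inner membrane, stood between CPT1A and the trifunctional genes at 841, 761, and 768 UQRPKM. As for CPT1A, its IM value was the highest, with log2 ratios of -0.14 (-0.23 to -0.06) in CM against IM and -0.13 (-0.21 to -0.05) in CMT against IM.

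The acyl-CoA dehydrogenases take up fatty acids of different chain length, with ACADVL acting on very long, ACADL on long, and ACADM on medium chains. ACADM had a UQRPKM of 465 (IM), 575 (CM), and 478 (CMT). ACADL had 758, 928, and 807 UQRPKM. Both genes were highest in CM. On the UQRPKM scale the intervals of CMT against IM included 0, for ACADL only just at 0.09 (-0.00 to 0.18). The log2 ratio in CM against IM was 0.31 (0.15 to 0.46) for ACADM and 0.29 (0.20 to 0.38) for ACADL. In CMT against CM it was -0.27 (-0.42 to -0.11) and -0.20 (-0.29 to -0.11), respectively. The hepatocyte markers were highest in the same library, and their part in the values of ACADM and ACADL was not tested.

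ACADVL showed another order. It had a UQRPKM of 884 (IM), 925 (CM), and 1124 (CMT), so the testosterone-treated pool was the highest. On the UQRPKM scale IM and CM differed by no more than counting error. The log2 ratio was 0.28 (0.21 to 0.35) in CMT against CM and 0.35 (0.28 to 0.42) in CMT against IM, the highest of the 8 genes in both comparisons. The muscle markers were highest in CMT too, and their part in the ACADVL value was not tested. ACADS, the dehydrogenase for short chains, was highest in IM and lowest in CMT, with 1480, 1341, and 1160 UQRPKM and a log2 ratio of -0.35 (-0.42 to -0.29) in CMT against IM.

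The last steps of each round on long chains are carried out by the trifunctional protein, whose alpha subunit (HADHA) holds the hydratase and dehydrogenase activities and whose beta subunit (HADHB) holds the thiolase. Both genes lie next to each other in the RefSeq gene table of Sscrofa11.1. HADHA had a UQRPKM of 2536 (IM), 2321 (CM), and 2370 (CMT). HADHB had 2603, 2491, and 2468 UQRPKM. The subunits were the most highly expressed of the 9 genes in each library and ran nearly in parallel. HADHA had a log2 ratio of -0.13 (-0.17 to -0.09) in CM against IM and -0.10 (-0.14 to -0.06) in CMT against IM. For HADHB all 3 intervals included 0, but they may be too wide, because its reads may have been recovered too low. When log2 ratios were centred on the median of mRNA genes with at least 50 UQRPKM, the sign of HADHA in CMT against IM and of HADHB in all 3 comparisons turned, so no direction is given for them there.

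ACAA2, the mitochondrial thiolase for shorter chains, had a UQRPKM of 2267 (IM), 2216 (CM), and 2339 (CMT). These values span a ratio of 1.06 between the highest and the lowest library. On the UQRPKM scale only CMT against CM left the range of counting error, at 0.08 (0.01 to 0.14). Centring turned its sign in CM against IM. HADHA, HADHB, and ACAA2 together made up 71.4% (IM), 69.1% (CM), and 69.9% (CMT) of the UQRPKM summed over the 9 genes.

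**Figure D3:**
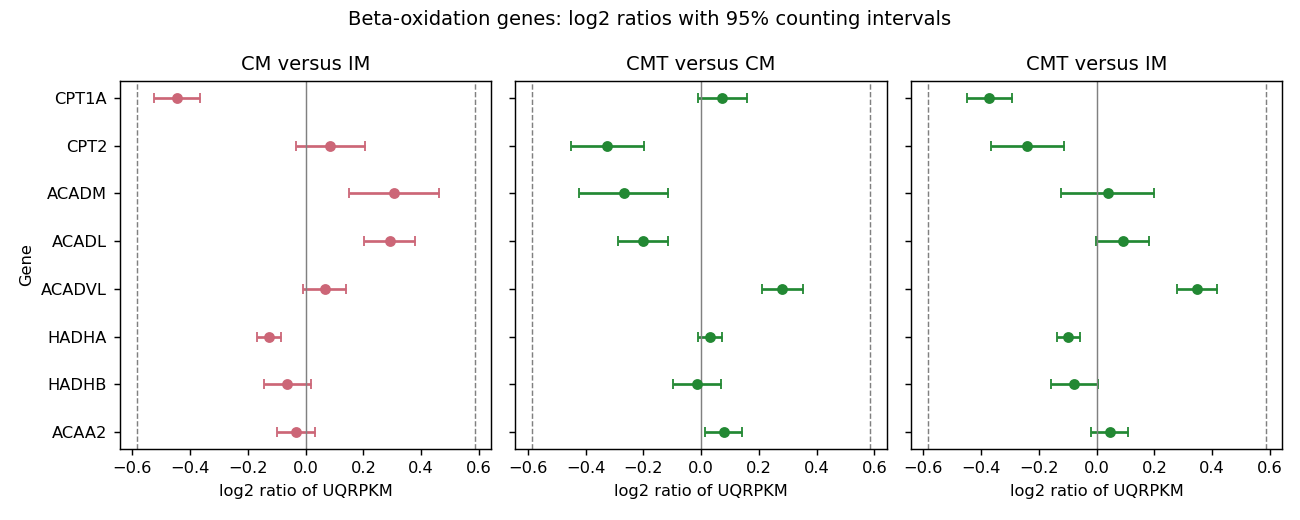
Log2 ratio of UQRPKM (horizontal axis) of the 8 genes with a value, in CM against IM, CMT against CM, and CMT against IM, with exact 95% intervals that cover counting error only and dashed lines at 1.5-fold. All points lie inside the dashed lines, from -0.44 for CPT1A in CM against IM to 0.35 for ACADVL in CMT against IM.

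On the UQRPKM scale, 3 of the 8 genes were highest in IM (CPT1A, HADHA, and HADHB), 3 in CM (CPT2, ACADM, and ACADL), and 2 in CMT (ACADVL and ACAA2). With centring the counts were 1, 3, and 4, since HADHA and HADHB were then highest in CMT, at 0.00 and 0.02 against IM on the log2 scale. The ratio of the highest to the lowest library ran from 1.05 for HADHB to 1.36 for CPT1A, with a median of 1.23. Over 7040 other mRNA genes with at least 50 UQRPKM and 100 reads in every library the median was also 1.23, and 12% of them reached a ratio of 1.5. The genes ranked high among mRNA genes above 0, from percentile 80.5 (CPT2) to 97.8 (HADHB) in IM.

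Ratios between genes within a library do not depend on how the libraries were scaled. The 8 pairs compared were chosen after their values were seen. The subunits of the trifunctional protein kept close to parity, with a HADHA to HADHB ratio of 0.974 (IM), 0.932 (CM), and 0.960 (CMT). In each comparison the counting interval of its difference included 0, the widest difference being -0.06 (-0.16 to 0.03) on the log2 scale in CM against IM. These intervals may be too wide, because the reads of HADHB may have been recovered too low. ACADM to ACADL was similarly even at 0.613, 0.620, and 0.592.

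Other pairs differed between libraries by more than counting error. The ratio of CPT1A to CPT2, the enzymes at either side of the shuttle, was 2.38 (IM), 1.65 (CM), and 2.17 (CMT). On the log2 scale it differed by -0.53 (-0.67 to -0.38) in CM against IM and by 0.40 (0.25 to 0.55) in CMT against CM. The ratio of ACADVL to ACADM was 1.90, 1.61, and 2.35, which made a difference of 0.55 (0.38 to 0.72) in CMT against CM. ACADVL to ACADL was 1.17, 0.997, and 1.39. ACADVL to CPT1A was 1.46, 2.09, and 2.41, which made a difference of 0.72 (0.61 to 0.82) in CMT against IM. HADHA to ACAA2 was 1.12, 1.05, and 1.01.

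**Figure D4:**
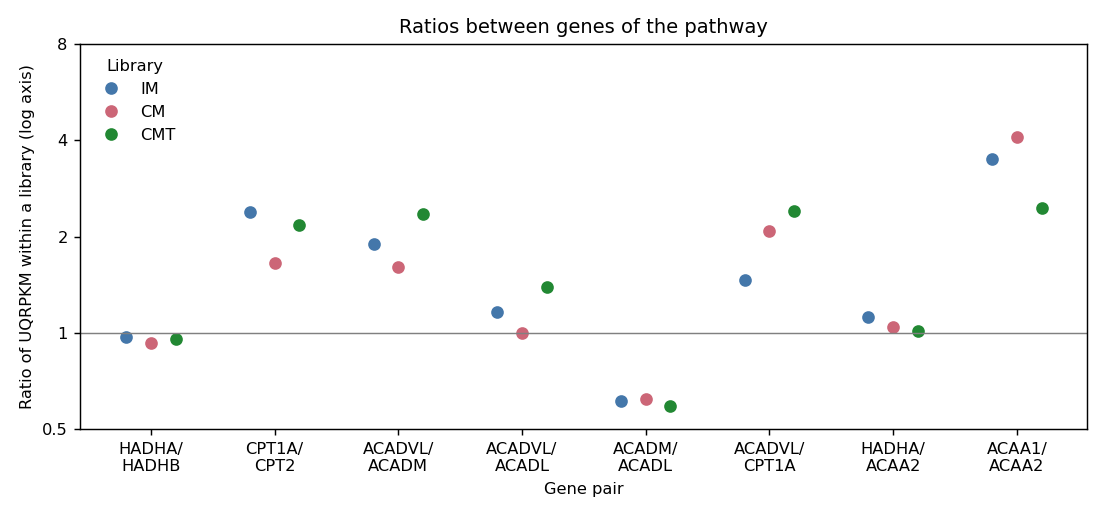
Ratio of UQRPKM between the genes of 8 pairs within each library (log axis), 1 point per library. HADHA to HADHB and ACADM to ACADL lie close together in the 3 libraries, whereas CPT1A to CPT2 is 1.65 in CM against 2.38 in IM and ACADVL to ACADM is 2.35 in CMT against 1.61 in CM.

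For the remaining steps of the mitochondrial pathway, 1 gene was called. Of 16 matched genes of this list, 15 passed the limit of 1 UQRPKM. CPT1C was called lower in CM against IM and in CMT against IM, where 10.4% and 11.9% of all mRNA genes tested were. Median log2 ratios were -0.07, -0.16, and -0.13 in CM against IM, CMT against CM, and CMT against IM. ECHS1, the short-chain enoyl-CoA hydratase, was listed at 0 in every library. HADH, the dehydrogenase for hydroxyacyl-CoA of shorter chains, was the most highly expressed gene of the list with 7168, 7397, and 5613 UQRPKM. Its value in CMT was lower than in the other libraries, with -0.40 (-0.44 to -0.35) in CMT against CM. ETFDH, which passes the electrons of the dehydrogenases on to ubiquinone, had 1519, 1516, and 1380 UQRPKM.

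Some genes of that list, picked after their values were seen, had the order of ACADM and ACADL. The list as a whole did not share it. Of the 15 genes tested, 6 had a log2 ratio above 0 in CM against IM and 9 below. In all, 6 were highest in CM, 7 in IM, and 2 in CMT. ACADSB, the dehydrogenase for short branched chains, had 649, 808, and 691 UQRPKM. DECR1, the reductase needed for polyunsaturated fatty acids, had 253, 309, and 256. ETFA, a subunit of the electron acceptor of the dehydrogenases, had 635, 773, and 690. All were highest in CM, with log2 ratios of 0.32 (0.23 to 0.40), 0.29 (0.15 to 0.42), and 0.28 (0.18 to 0.39) in CM against IM. ETFB, the partner subunit of ETFA and picked in the same way, was flatter at 2817, 2997, and 2764 UQRPKM.

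Peroxisomes shorten very long and branched fatty acids with a separate set of enzymes. Of the 22 genes of the peroxisomal list, all were matched and PHYH was listed at 0. In CM against IM, 2 of 20 genes tested were called higher and 0 lower, where 8.38% and 10.4% of all mRNA genes tested were called. In CMT against CM, 0 of 21 were called higher and 4 lower, beside 9.53% and 9.97% of all genes. In CMT against IM, 0 of 20 were called higher and 3 lower, beside 8.81% and 11.9%. The median log2 ratios were 0.06, -0.08, and -0.05.

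ACAA1, the peroxisomal thiolase, was the highest of the list at 7902 (IM), 9056 (CM), and 5730 (CMT) UQRPKM. It was called lower in CMT against CM at -0.66 (-0.69 to -0.63), whereas its mitochondrial counterpart ACAA2 was 0.08 in that comparison. The ratio of ACAA1 to ACAA2 was accordingly 3.49 (IM), 4.09 (CM), and 2.45 (CMT). Adipocyte markers had a median log2 ratio of -0.47 in CMT against CM, and their part in the ACAA1 value was not tested. ACOX2, the oxidase for branched chains, had 183, 240, and 113 UQRPKM and was called lower in CMT against CM at -1.09 (-1.25 to -0.92) and in CMT against IM at -0.70 (-0.87 to -0.52).

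PECR, a peroxisomal enoyl-CoA reductase, had 308, 587, and 348 UQRPKM. It was called higher in CM against IM at 0.93 (0.81 to 1.06) and lower in CMT against CM at -0.75 (-0.87 to -0.63). ACOT4, a thioesterase, was also highest in CM with 40.4, 69.6, and 30.2 UQRPKM from 56, 92, and 41 reads, and was called higher in CM against IM at 0.79 (0.29 to 1.29) and lower in CMT against CM at -1.21 (-1.77 to -0.66). The hepatocyte markers peaked in CM as well, and their part in the values of PECR and ACOT4 was not tested. In CMT against IM, ABCD3, a transporter of the peroxisomal membrane, and the thioesterase ACOT8 were called lower at -0.64 (-0.78 to -0.49) and -0.60 (-0.72 to -0.48). With centring both calls ended, at -0.54 and -0.50, as did that of ACOT8 with scaling by the total UQRPKM of mRNA genes at -0.56, which left 1 and 2 of the 3 lower calls of the list, respectively.

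HSD17B4, the bifunctional enzyme for branched chains, had 1475, 1385, and 1690 UQRPKM, and EHHADH, the other bifunctional enzyme, had 42.3, 36.5, and 43.7. Neither was called in any comparison.

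**Figure D5:**
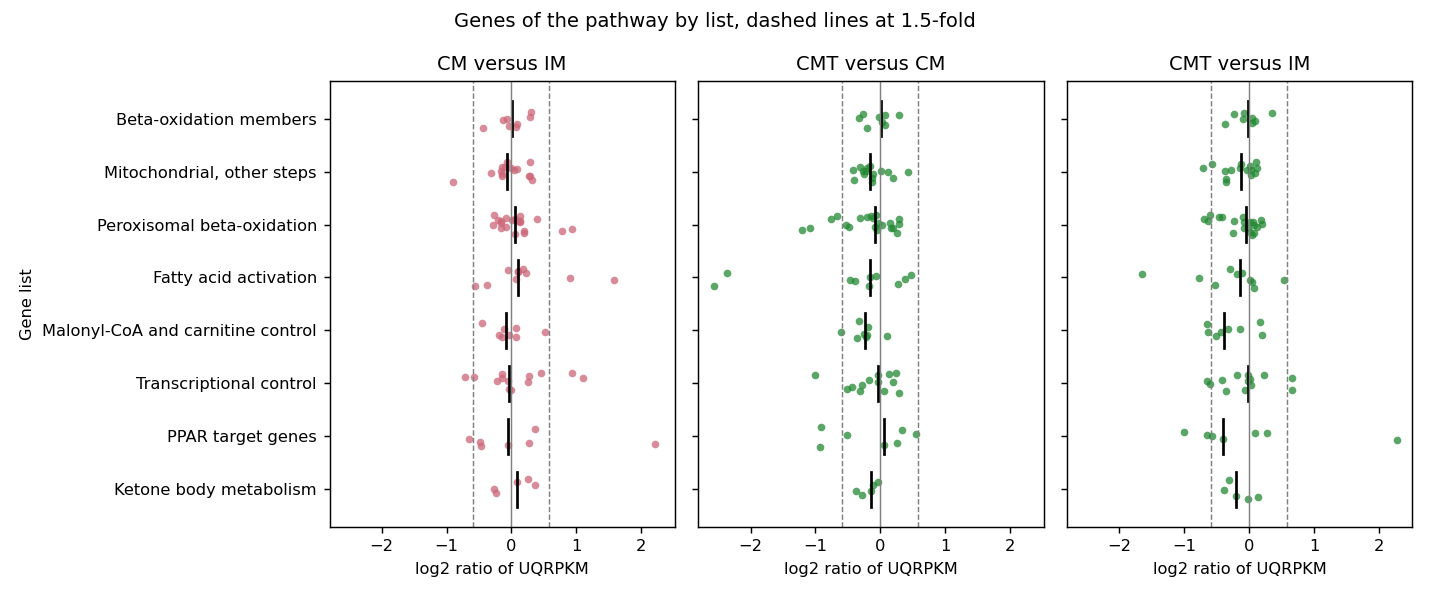
Log2 ratio of UQRPKM for the genes of each list with at least 1 UQRPKM in both libraries (1 point per gene, black bar at the median, dashed lines at 1.5-fold). The 8 beta-oxidation genes stay inside the dashed lines in all 3 comparisons, and peroxisomal genes called in CMT against CM all lie on the lower side.

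Activation to acyl-CoA precedes both pathways. Of 10 genes tested in this list, ACSM3 and ACSM5, mitochondrial synthetases for medium chains, were called higher in CM against IM and lower in CMT against CM and in CMT against IM. Among all mRNA genes tested, 8.38% were called higher in CM against IM, and 9.97% and 11.9% lower in CMT against CM and CMT against IM. ACSM5 had 14.3, 26.9, and 4.56 UQRPKM from 61, 109, and 19 reads, and ACSM3 had 1.74, 5.22, and 1.02 UQRPKM from 7, 20, and 4 reads. The interval of ACSM3 in CMT against IM, -0.78 (-3.00 to 1.20), included 0, and a pseudocount of 1 ended the call at -0.44. With centring, ACSL3, a long-chain synthetase singled out for this change, went from 0.53 to 0.63 in CMT against IM and was then called higher. ACSL1, the main long-chain synthetase of fat, had the highest level at 4883, 5214, and 3962 UQRPKM and was not called, with -0.40 (-0.42 to -0.37) in CMT against CM. The list had median log2 ratios of 0.10, -0.16, and -0.15 in CM against IM, CMT against CM, and CMT against IM.

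Malonyl-CoA, the product of acetyl-CoA carboxylase, inhibits CPT1. ACACA, the cytosolic carboxylase, had a UQRPKM of 1507 (IM), 1467 (CM), and 962 (CMT) and was called lower in CMT against CM at -0.61 (-0.65 to -0.57) and against IM at -0.65 (-0.69 to -0.61). ACACB, the mitochondrial form that supplies the pool near CPT1, was far lower at 25.3, 18.4, and 16.2 UQRPKM. It was called lower in CMT against IM at -0.64 (-0.91 to -0.38). No gene of the 8 tested in this list was called in CM against IM, where 18.8% of all mRNA genes tested were. In CMT against CM 1 was called lower, beside 9.97% of all mRNA genes tested, and in CMT against IM 2 were, beside 11.9%. With centring the lower calls of the list were 0 and 0, with ACACA at -0.58 and -0.55 and ACACB at -0.54. Centring also took PRKAB2, a subunit of AMP-activated kinase singled out here for that reason, from 0.52 to 0.59 in CM against IM, just past 1.5-fold. Scaling by total UQRPKM ended the ACACA call in CMT against CM, at -0.58. No single match by symbol, RefSeq gene ID, or synonym was found for MLYCD, and PRKAA1 was listed at 0. The median log2 ratios were -0.08, -0.23, and -0.39.

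Among the transcriptional regulators, PPARA, the nuclear receptor that drives genes of beta-oxidation in liver, had a UQRPKM of 37.1 (IM), 79.4 (CM), and 58.7 (CMT) from 78, 159, and 121 reads. It was called higher in CM against IM at 1.10 (0.70 to 1.51) and in CMT against IM at 0.66 (0.24 to 1.09). ESRRG, an orphan receptor of oxidative tissues, had 5.97, 11.4, and 5.69 UQRPKM and was called higher in CM against IM at 0.94 (0.40 to 1.49) and lower in CMT against CM at -1.01 (-1.57 to -0.46), from 46, 84, and 43 reads. Hepatocyte markers moved with both genes in CM, and their part was not tested.

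LPIN1, a phosphatidate phosphatase that also acts as a coactivator, had 1355, 828, and 1015 UQRPKM and was called lower in CM against IM at -0.71 (-0.77 to -0.65). As for CPT1A, IM had the highest value. In CMT against IM, the deacetylase SIRT1 was called higher at 0.66 (0.37 to 0.95), and the deacetylase SIRT3 and the receptor PPARD were called lower at -0.61 (-0.90 to -0.33) and -0.65 (-0.76 to -0.54). The calls of SIRT3 and PPARD ended with centring, at -0.51 and -0.55, and that of SIRT3 with scaling by total UQRPKM, at -0.57. PPARG, the adipocyte receptor, was the highest of the list at 1454, 1745, and 1704 UQRPKM and was not called. PPARGC1A and NRF1 were listed at 0, and no single match by symbol, RefSeq gene ID, or synonym was found for RXRA and TFAM. Of the 13 regulators tested, 2 were called higher and 1 lower in CM against IM, beside 8.38% and 10.4% of all mRNA genes tested. The counts were 0 and 1 in CMT against CM, beside 9.53% and 9.97%, and 2 and 2 in CMT against IM, beside 8.81% and 11.9%. The median log2 ratios of the regulators were -0.04, -0.03, and -0.02.

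Genes known as PPAR targets outside beta-oxidation did not share an order. PDK4, the kinase that holds back pyruvate oxidation, had 2013, 1459, and 2140 UQRPKM and was not called, with -0.46 (-0.51 to -0.42) in CM against IM and 0.55 (0.51 to 0.59) in CMT against CM. ANGPTL4, an inhibitor of lipoprotein lipase, had 5109, 3239, and 3853 UQRPKM and was called lower in CM against IM at -0.66 (-0.70 to -0.62). Both had their lowest value in CM. UCP3, an uncoupling protein, had 1941, 2332, and 1240 UQRPKM and was called lower in CMT against CM at -0.91 (-0.97 to -0.86) and against IM at -0.65 (-0.70 to -0.59). With centring the latter was -0.55 and no longer called.

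FABP3, a fatty acid binding protein of muscle and other oxidative tissues, had a UQRPKM of 1917 (IM), 8926 (CM), and 9268 (CMT). It was called higher in both castrated groups against IM, at 2.22 (2.07 to 2.37) in CM and 2.27 (2.13 to 2.42) in CMT. Beside these levels the muscle markers summed to 118, 104, and 7406 UQRPKM, and their part in the FABP3 values was not tested. The droplet proteins PLIN2 and PLIN5 were lowest in CMT, with PLIN2 called lower in CMT against IM at -1.0 (-1.19 to -0.81) and PLIN5 in CMT against CM at -0.94 (-1.29 to -0.59). CIDEA was listed at 0. Over the 7 genes tested, 1 was called higher and 1 lower in CM against IM, beside 8.38% and 10.4% of all mRNA genes tested. The counts were 0 and 2 in CMT against CM, beside 9.53% and 9.97%, and 1 and 2 in CMT against IM, beside 8.81% and 11.9%. The median log2 ratios of the 7 genes were -0.05, 0.05, and -0.41.

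CYP4A21, a fatty acid hydroxylase of the same list that was singled out after its values were seen, had 0, 25.9, and 0.277 UQRPKM from 0, 91, and 1 reads. It stood with the hepatocyte markers in CM, and the part of those cells was not tested.

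Acetyl-CoA from beta-oxidation feeds ketone body formation in liver. The 5 genes of ketone body metabolism tested were not called in any comparison. Of all mRNA genes tested, 18.8% (CM against IM), 19.5% (CMT against CM), and 20.7% (CMT against IM) were called in either direction. OXCT1, which starts the use of ketones, had the highest level at 4755, 6106, and 4684 UQRPKM, and the median log2 ratios of the list were 0.09, -0.15, and -0.20.

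The mRNA genes most like the median pattern of the beta-oxidation genes, by Euclidean distance over the log2 ratios of CM and CMT to IM, were REPS1, BTBD19, CSE1L, ANTXR2, and CALCOCO2. Their distances were between 0.000688 and 0.0115 in 3 libraries. The pattern is close to flat, and 626 of the 7040 genes compared lay within a distance of 0.1, so likeness to it sets few genes apart. Among the members, ACAA2 was nearest to the median pattern at 0.081 and CPT1A farthest from it at 0.580.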

How the data were processed

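RNA-Seq of visceral adipose tissue was analysed from 3 pooled libraries, 1 each for IM, CM, and CMT, grouped by their sample titles. The authors used MapSplice to place adaptor-trimmed, quality-filtered reads on Sscrofa 10.2 and deposited RPKM values scaled by the upper quartile of each library (UQRPKM). The counting tool and annotation are not given in the sources used here, so reads shared between similar or overlapping genes may be split in an unknown way.

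Reads were recovered from the deposited values as whole multiples, using per gene the smallest length, at most 120000 bases, that gave whole reads in all libraries within a relative error of 1e-08. This succeeded for 100.0% of the 20838 genes above 0. The upper quartiles fitted were 149, 142, and 146 for IM, CM, and CMT. Reads that share a common factor come out too low, with intervals that are too wide. The recovered lengths of HADHB (661 bases) and ACADM (915 bases) are shorter than the coding sequences of these enzymes, so their reads may be too low in this way. The recovery and the intervals were tested on simulated data.

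Members, gene lists, and marker lists were chosen with earlier results of these data known. All 9 members are named, and of each list the genes called in at least 1 comparison, the gene highest in IM, and a few fixed core enzymes. Names missing from the files were matched by RefSeq gene ID or synonym (Sscrofa11.1 table). Calls used the fold and level limits of the study's methods. Its DEGSeq test was not run, since 1 library per group gives no replicate error. Gene coordinates are not given, because the gene table at hand describes another build. Python 3.11.15, pandas 2.3.3, and SciPy 1.17.1 were used.
Some genes of the lists are counted but not reported here by name. Calls gained and lost in the lists, and the library with the highest member level, were also counted under each scaling, a count added after seeing the data.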

Additional observations from a re-analysis of the deposited data

How the results depend on the processing

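The count of beta-oxidation genes called stayed at 0 in all 3 comparisons under both other scalings. It was also 0 with a pseudocount of 1, a 2-fold limit, no minimum level, or a minimum of 10 reads. The same held for the 1.5-fold limit joined to a counting interval without 0. Apart from the scalings, these settings could not have raised the count. They shrink the ratios, tighten the 1.5-fold limit, or concern levels and reads far below those of the 8 genes. Scaling by total UQRPKM or centring on the median of mRNA genes with at least 50 UQRPKM added between 0.02 and 0.10 to the log2 ratios. The same shifts move the counting intervals. Under both scalings those of CPT1A and HADHA in CMT against CM leave out 0. So do those of ACADVL in CM against IM and of ACADL and ACAA2 in CMT against IM. With centring that of CPT2 in CM against IM also leaves out 0, and that of HADHA in CMT against IM includes it. Centring moved the median of the 8 genes in CMT against IM to 0.080. The 6 genes with a value found under their own symbol, an alternative added after seeing the data, had a median of -0.085 in CMT against CM. That set leaves out ACADVL and HADHB, which had log2 ratios of 0.28 and -0.01 in that comparison. Centring turned the sign of HADHB in all comparisons, of HADHA in CMT against IM, and of ACAA2 in CM against IM, and scaling by total UQRPKM turned HADHB in CMT against CM. With centring, ACACA was no longer past 1.5-fold in CMT against CM or CMT against IM, nor were ABCD3, ACOT8, ACACB, PPARD, SIRT3, and UCP3 in CMT against IM, while PRKAB2 in CM against IM and ACSL3 in CMT against IM came past it. Scaling by total UQRPKM ended the calls of ACACA in CMT against CM and of ACOT8 and SIRT3 in CMT against IM, and the pseudocount that of ACSM3 in CMT against IM. The share of CPT1B in CPT1A plus CPT1B cannot be read, because CPT1B is listed at 0 and a pseudocount of 1 alone sets it to 0.165% (IM), 0.225% (CM), and 0.213% (CMT). No replicate could be left out. No paired analysis was possible because each group is 1 library. The intervals leave out the spread between pigs, which 1 pooled library per group cannot give.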
